A study of Neurospora crassa with 2 samples.

Results

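The genes described here encode the cellulose degradation enzymes of *Neurospora crassa* and their oxidative partners, read in the wild type (WT) and in the *gul*-*1* deletion mutant (Δ*gul*-*1*). They were found by their deposited annotation: endoglucanase, cellobiohydrolase, cellobiose dehydrogenase, β-glucosidase, a cellulose-binding domain, or membership of glycoside hydrolase family 1, 3, 5, 6, 7, 12, 45 or 61. Annotations of β-1,3-glucan enzymes and 3 loci counted with the cell wall proteins were left out. This gave 38 of the 9730 genes in the table, by a rule that uses no measured value but was written with earlier results of these data known. They were classed by the annotated activity or, where none was named, by family. The classes held 4 cellobiohydrolase genes, 4 family 7 genes without a named activity, 5 endoglucanase genes and 11 genes annotated to family 61. There were also 2 cellobiose dehydrogenase genes, 7 family 1 and family 3 genes and 5 other genes with cellulose-binding annotation. The family 6 genes were put with the cellobiohydrolases by family alone. In the same way *gh5*-*1* and *gh45*-*1* were put with the endoglucanases.

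The study asked how deletion of *gul*-*1*, known in yeasts through its homologue Ssd1, an RNA-binding protein of cell wall biogenesis, alters growth form and enzyme secretion in submerged culture. WT and Δ*gul*-*1* conidia were grown separately for 3 days at 25 °C under constant light in medium with 2% Avicel (a microcrystalline cellulose), 0.75% yeast extract and 0.2% Tween 80, and RNA of the mycelia was sequenced. There was 1 library per strain, and the sources used here do not say whether a library pooled several flasks. No difference between these libraries therefore has a replicate check in the sequencing data, and none has a p-value. The study also measured major cellulase and cell wall protein genes by quantitative PCR, which was not used here.

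Each gene is given as reads and as RPKM, the deposited reads per kilobase of exon, scaled to the assigned reads of the library. The libraries held 20461987 WT reads against 20341292 mutant reads. A ratio is the Δ*gul*-*1* RPKM over the WT RPKM, and its 95% interval is the exact interval from the reads, which covers counting error only and not the spread between cultures. Genes above 20 RPKM in at least 1 library were called higher from a ratio of 2 upwards and lower from a ratio of 0.5 downwards. The deleted gene had 21537 reads in the WT library and 304 reads in the Δ*gul*-*1* library (203.7 and 2.89 RPKM), the direction its labels give. TMM scaling, a normalization that trims the most abundant and most changed genes, lowered every log2 ratio by 0.15, so that a log2 ratio between 0 and 0.15 changes sign with it.

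The labelled tissue was checked on hyphal and conidial markers. The hyphal markers actin (*act*), *hex*-*1* and β-tubulin were abundant in both libraries and within 2-fold, with a summed level of 6703 RPKM in the WT against 5105 in the mutant. The 4 conidial markers summed to 6668 RPKM in the WT against 931 in the mutant, a difference that came from *eas*, the gene of the conidial rodlet layer, at 5793 and 169.0 RPKM. The other conidial markers were not all lower. *con*-*10* had 159.1 and 229.4 RPKM, *con*-*6* 10.3 and 21.3 RPKM, and *con*-*8* 705.6 and 511.1 RPKM. In bulk RNA, fewer cells of a type and less RNA per cell cannot be told apart. The part of these markers in the differences between the libraries was not tested.

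Cellulose is taken apart by several enzymes that act together. Endoglucanases cut within a chain, cellobiohydrolases move along a chain from its end and release cellobiose, and β-glucosidases split cellobiose into glucose. The family 61 enzymes, now known as lytic polysaccharide monooxygenases, cut chains in crystalline cellulose by oxidation, and cellobiose dehydrogenase can supply them with electrons. In *N. crassa* the major cellulase genes are induced on cellulose through the transcription factors CLR-1 and CLR-2 and are repressed on glucose through CRE-1.

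Where 45.3% of all 9730 genes passed 20 RPKM in a library, 23 of the 38 members (60.5%) did so. Among these, 3 were higher in Δ*gul*-*1* (*gh61*-*7*, *gh3*-*4* and NCU08785), against 3.88% of all genes past the same floor, and 3 were lower (NCU05404, NCU07898 and NCU09416), against 2.63% of all. The remaining 17 lay within 2-fold. A difference of 2-fold in either direction was thus found for 26.1% of the members and for 6.51% of the 4409 genes past the floor, a description of these libraries and no test. The median log2 ratio of the 23 genes was -0.03, and that of all genes past the floor was 0.11. The middle of the distribution was wider for the members, with quartiles at -0.49 and 0.73, than for all genes, with quartiles at -0.11 and 0.31. With the line set at 1.5-fold, 8 members were higher and 5 lower, against 10.8% and 5.76% of all genes past the floor. In all, 11 of the 23 had a ratio above 1 and 12 a ratio below 1, where 63.9% of all genes past the floor had a ratio above 1. TMM scaling left 9 of the 23 and 44.0% of all genes above 1. On either side of the floor stood *gh61*-*2*, whose higher library had 23.4 RPKM, and *gh3*-*5*, whose higher library had 18.1 RPKM.

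**Figure D1:**
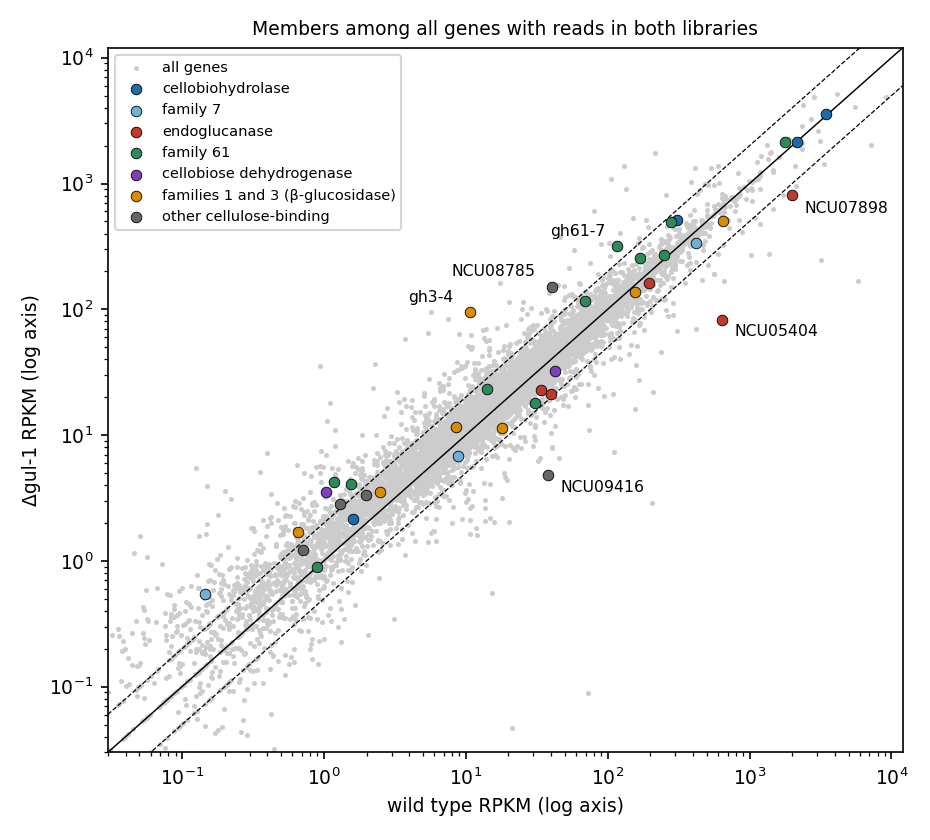
RPKM of every gene with reads in both libraries (grey), WT on the horizontal and Δ*gul*-*1* on the vertical axis, both logarithmic, with the members coloured by enzyme class. The solid line marks equal RPKM and the dashed lines 2-fold. The 6 named members, all above 20 RPKM in a library, lie beyond the dashed lines. Also beyond them, on the higher side, lie 6 members under that floor. The cellobiohydrolase genes *cbh*-*1* and *gh6*-*2* lie on the solid line near the top.

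The cellobiohydrolase genes held the largest share of the summed member RPKM and were near equal in the 2 libraries. *gh6*-*2* (NCU09680), a family 6 gene, had 103620 WT reads against 104738 mutant reads, or 3480 against 3539 RPKM. It ranked 6 among all genes in both libraries. *cbh*-*1* (NCU07340), the cellobiohydrolase 1 gene, had 129813 WT reads against 126171 mutant reads, or 2173 against 2124 RPKM. Its ratio was 0.978 (interval 0.970 to 0.985) and that of *gh6*-*2* was 1.02 (1.01 to 1.03), which TMM scaling turned to 0.917. At this depth the counting intervals are narrow enough to exclude 1 for both genes, but they say nothing of the variation between cultures. *cbh*-*1* and *gh6*-*2* together made up 43.5% of the member RPKM in the WT and 46.4% in Δ*gul*-*1*.

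Another gene of the class differed more. *gh6*-*3* (NCU07190) went from 12037 WT reads to 20002 mutant reads, or 307.3 to 513.8 RPKM, a ratio of 1.67 (1.63 to 1.71) that stayed below 2-fold. In NC12 the gene holds a tRNA gene of 82 bases, which has no row in the table. *gh6*-*1* had few reads, 39 in the WT and 52 in the mutant. Summed over the 4 genes, the class had 5962 RPKM in the WT against 6179 in the mutant, a ratio of 1.04 that fell to 0.934 with TMM scaling, so its direction depends on the scaling.

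Family 7 holds both cellobiohydrolases and endoglucanases, and the annotation of 4 of its genes does not say which. Only *gh7*-*1* (NCU05057) passed the floor, with 11240 WT reads against 9088 mutant reads, or 417.1 against 339.2 RPKM, a ratio of 0.813 (0.791 to 0.836). *gh7*-*2* had 430 and 332 reads, *gh7*-*4* had 4 and 15 reads, and *gh7*-*3* had 0 reads in both libraries. The family 7 transcripts outside *cbh*-*1* were therefore almost wholly those of *gh7*-*1*.

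All 5 genes of the endoglucanase class passed the floor, and all 5 had a lower RPKM in Δ*gul*-*1* than in the WT. Over all genes past the floor, 63.9% had a ratio above 1, or 44.0% after TMM scaling. NCU05404, NCU07898 and NCU07974 were placed in this class by the words of their annotation alone, and their families were not checked. NCU05404, annotated as an endoglucanase (chromosome II, 1536148 to 1538801 in NC12), had 34852 WT reads against 4462 mutant reads, or 641.8 against 82.7 RPKM. This is 7.76-fold lower, with a ratio of 0.129 (0.125 to 0.133), and took the gene from rank 82 to rank 1064 among all genes. In the WT it stood level with the intracellular β-glucosidase gene *gh1*-*1*, and in Δ*gul*-*1* it stood below *gh3*-*4*.

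NCU07898 (chromosome IV, 1412641 to 1413821) is annotated as endoglucanase IV, a name that in *Trichoderma reesei* was given to a family 61 enzyme. It followed *gh6*-*2* and *cbh*-*1* in level in the WT. Its 29218 WT reads stood against 11921 mutant reads, or 1992 against 817.4 RPKM, and it was 2.44-fold lower (ratio 0.410, interval 0.402 to 0.419). NCU05404 and NCU07898 were together 1733 RPKM lower in Δ*gul*-*1*, more than the 772 RPKM by which the sum of all members was lower.

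The other endoglucanase genes lay within 2-fold on the deposited values. *gh45*-*1* (NCU05121), of a family of small endoglucanases, had 819 WT reads against 434 mutant reads, or 39.7 against 21.2 RPKM. Its ratio of 0.533 (0.473 to 0.600) fell to 0.480 with TMM scaling, past the 2-fold line. NCU07974, annotated as endoglucanase B, had 1549 WT reads against 1037 mutant reads, or 33.9 against 22.9 RPKM, a ratio of 0.673 (0.622 to 0.729). It overlaps its neighbour NCU07975 by 58 bases, and the neighbour had 1343 and 998 reads. Since the use of strand in counting is not stated, reads from the overlap cannot be told apart.

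*gh5*-*1* (NCU00762), a family 5 gene, had the smallest difference of the class, from 8074 WT reads to 6576 mutant reads, or 196.7 to 161.2 RPKM (ratio 0.819, interval 0.793 to 0.847). The class sum was 2904 RPKM in the WT against 1105 in the mutant, a ratio of 0.381. With NCU07898 left out it was 912 and 288 RPKM, a ratio of 0.316, of which NCU05404 was the main part. Without NCU05404 alone the ratio was 0.452, and without both genes the other 3 summed to 270.4 and 205.2 RPKM, a ratio of 0.759. Endoglucanases made up 22.4% of the member RPKM in the WT and 9.05% in Δ*gul*-*1*.

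**Figure D2:**
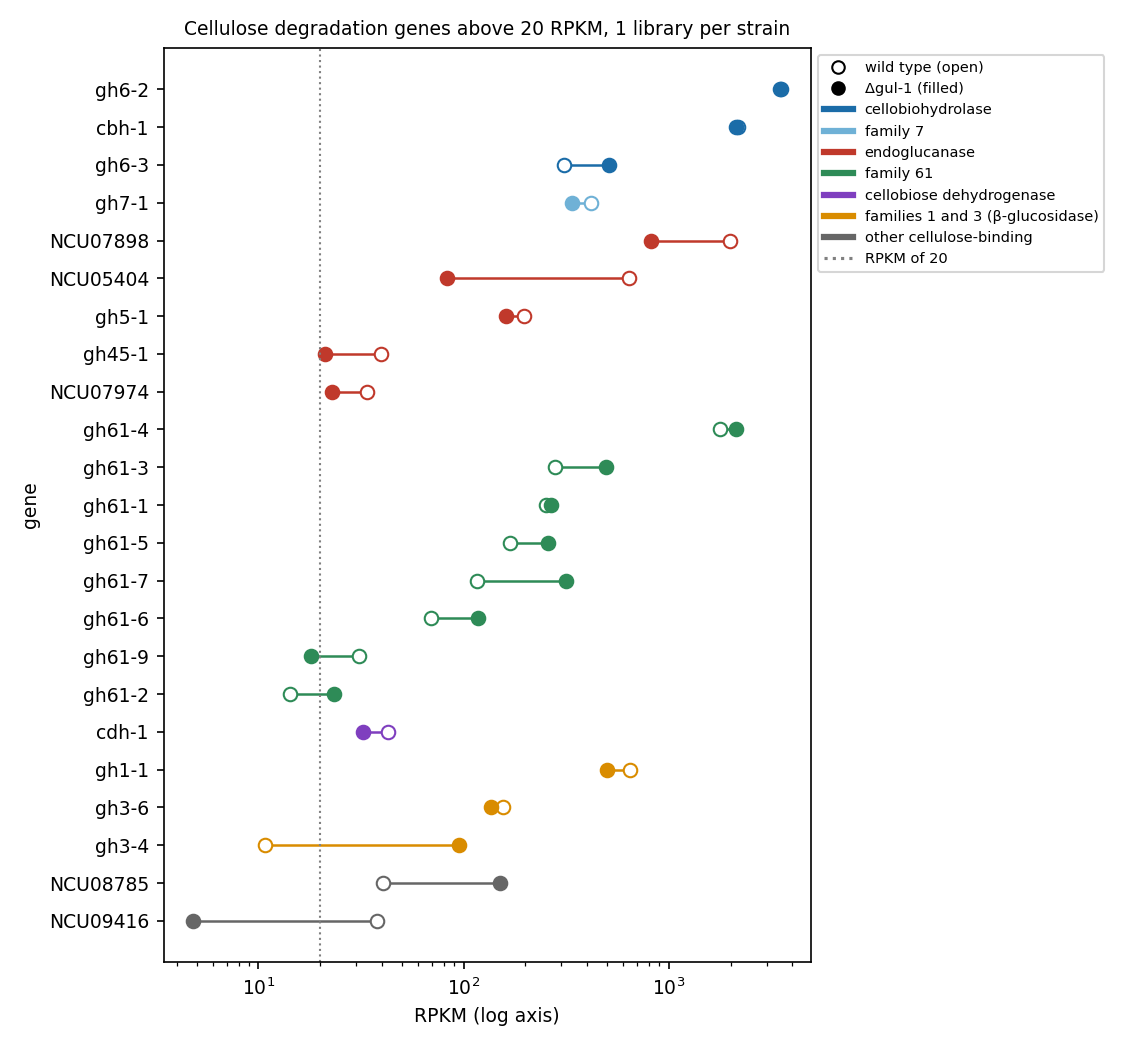
RPKM in the WT (open points) and in Δ*gul*-*1* (filled points) of the 23 members above 20 RPKM in a library, on a logarithmic axis, grouped by enzyme class and joined by a line for each gene; the dotted line marks 20 RPKM. All 5 genes of the endoglucanase class have the filled point to the left of the open point. Of the 8 genes annotated to family 61, 7 have it to the right. Over all genes above 20 RPKM in a library, 63.9% had a ratio above 1, or 44.0% after TMM scaling.

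Most genes annotated to family 61 showed the opposite direction. The contrast was between classes set by annotation, and the families of NCU05404, NCU07898 and NCU07974 were not checked. Of these 11 genes, 8 passed the floor, and 7 of these 8 had a higher RPKM in Δ*gul*-*1*, 6 of them also after TMM scaling. With NCU07898 counted in, 7 of 9 were higher. The shares over all genes past the floor were 63.9% and, after TMM scaling, 44.0%. The largest difference was that of *gh61*-*7* (NCU00836, chromosome I, 7005196 to 7006890). It went from 3203 WT reads to 8727 mutant reads, or 115.6 to 316.9 RPKM, 2.74-fold higher (2.63 to 2.85).

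A group of 4 genes lay between 1.5-fold and 2-fold higher. *gh61*-*3* (NCU02916) had 9390 WT reads against 16446 mutant reads, or 279.1 against 491.8 RPKM (ratio 1.76). *gh61*-*6* (NCU03328) had 2248 reads and 69.7 RPKM against 3751 reads and 116.9 RPKM (1.68). These ratios were close to each other although *gh61*-*3* had 4.01 times the RPKM of *gh61*-*6* in the WT. The less abundant *gh61*-*2* (NCU07760) had 515 WT reads against 845 mutant reads, or 14.2 against 23.4 RPKM (1.65). *gh61*-*5* (NCU08760) had 4570 reads and 168.6 RPKM against 6914 reads and 256.5 RPKM (1.52). With *gh61*-*7*, 5 of the 8 genes were thus at least 1.5-fold higher, a count that TMM scaling brought to 3.

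The most abundant gene of the family moved less. *gh61*-*4* (NCU01050) had 26213 WT reads against 30908 mutant reads, or 1787 against 2119 RPKM, a ratio of 1.19 (1.17 to 1.21). *gh61*-*1* (NCU02240) had 10078 WT reads against 10699 mutant reads, or 250.9 against 267.9 RPKM, a ratio of 1.07 that TMM scaling turned to 0.963. The exception to the direction of the family was *gh61*-*9* (NCU05969), with 2069 WT reads against 1196 mutant reads, or 31.0 against 18.0 RPKM, a ratio of 0.581 (0.541 to 0.625).

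Among the family 61 genes under the floor, *gh61*-*10* (NCU01867) had 25 WT reads against 90 mutant reads, a ratio of 3.62 whose interval (2.30 to 5.89) lay wholly above 2-fold. *gh61*-*8* had 26 and 68 reads and *gh61*-*11* had 17 in each library. The family summed to 2719 RPKM in the WT against 3620 in the mutant, a ratio of 1.33, and its share of the member RPKM was 20.9% and 29.6%. This sum depends on where NCU07898 is placed. Counted with family 61, it brought the sums to 4711 and 4437 RPKM, a ratio of 0.942.

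The cellobiose dehydrogenase genes, whose enzymes oxidize cellobiose and pass electrons on, are 2 in number. *cdh*-*1* (NCU00206) had 3275 WT reads against 2463 mutant reads, or 42.6 against 32.2 RPKM, a ratio of 0.757 (0.718 to 0.797). *cdh*-*2* (NCU05923) had 56 WT reads against 188 mutant reads, or 1.04 against 3.51 RPKM, a ratio of 3.38 (2.49 to 4.64). The more abundant gene was thus lower and the rare one higher in Δ*gul*-*1*, and together they had 43.6 and 35.7 RPKM. In neither library did cellobiose dehydrogenase transcripts reach 1% of the member RPKM.

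Families 1 and 3, which hold the β-glucosidases, contained the largest ratio of all members. *gh3*-*4* (NCU04952), a β-glucosidase gene (chromosome IV, 846341 to 849048), had 567 WT reads against 4976 mutant reads, or 10.8 against 95.2 RPKM, 8.83-fold higher (8.09 to 9.65). Its rank among all genes went from 5548 to 905. The most abundant gene of these families was *gh1*-*1* (NCU00130), with 29776 WT reads against 22808 mutant reads, or 649.6 against 500.6 RPKM, a ratio of 0.771 (0.757 to 0.784). *gh3*-*6* (NCU07487) was lower as well, with 8298 WT reads against 7243 mutant reads, or 155.2 against 136.3 RPKM (ratio 0.878, interval 0.851 to 0.906).

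The summed RPKM of families 1 and 3 was 845 in the WT against 760 in the mutant, so that the higher *gh3*-*4* level did not make the sum higher. Most of that sum was the intracellular *gh1*-*1*, whereas the study describes *gh3*-*4* as an extracellular β-glucosidase gene. *gh3*-*4* took 1.28% of that sum in the WT against 12.5% in the mutant, and without it the sums were 835 and 665 RPKM. The other 4 genes of the families were under the floor. *gh3*-*5*, the closest to it, had 1101 and 687 reads and overlaps the gene NCU05578 by 150 bases. *gh3*-*7* had 414 and 553 reads, *gh3*-*1* 175 and 248 reads, and *gh3*-*8* 35 and 89 reads.

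The 5 cellulose-binding genes outside these classes included one of the highest and one of the lowest ratios. NCU08785 (chromosome III, 5130163 to 5131035) carries a fungal cellulose-binding domain, the small module that anchors an enzyme to its substrate. It had 721 WT reads against 2686 mutant reads, or 40.4 against 151.3 RPKM, 3.75-fold higher (3.45 to 4.07). NCU09416 (chromosome VII, 1189102 to 1190441), annotated as a cellulose-binding GDSL lipase or acylhydrolase, had 915 WT reads against 115 mutant reads, or 37.9 against 4.80 RPKM, 7.91-fold lower (ratio 0.126, interval 0.103 to 0.154). The other 3 genes were under the floor, with 16 to 68 reads in the WT and 27 to 114 reads in Δ*gul*-*1*.

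**Figure D3:**
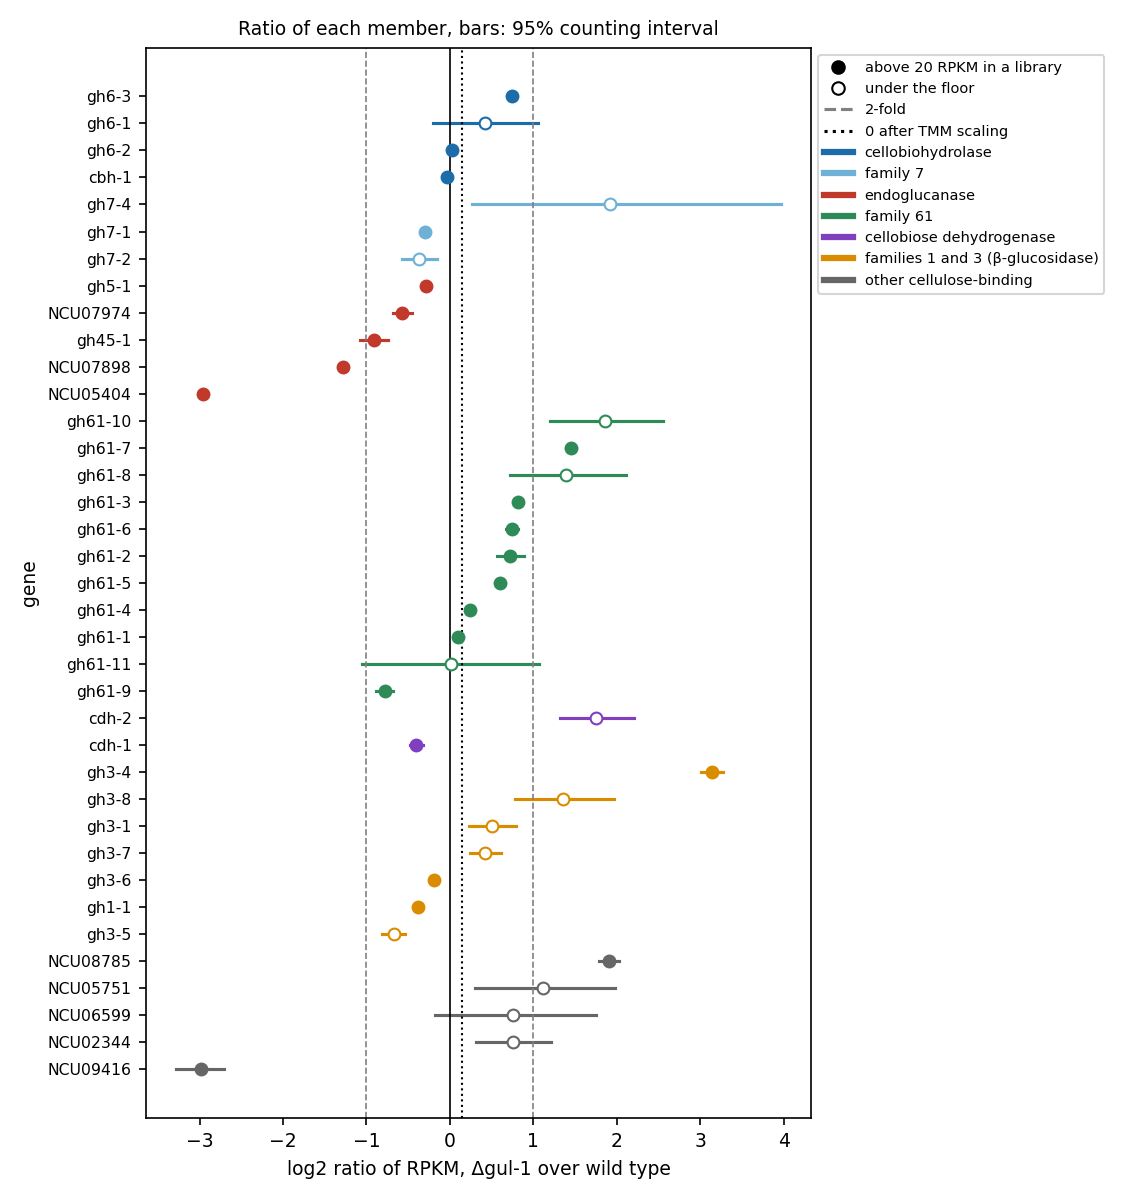
Log2 ratio of Δ*gul*-*1* over WT RPKM for the 37 members with reads in both libraries, grouped by enzyme class. Bars are exact 95% intervals of counting error, filled points passed 20 RPKM in a library, dashed lines mark 2-fold and the dotted line marks where 0 lies after TMM scaling. The endoglucanase points run from -0.29 to -2.96, and the filled family 61 points from -0.78 to 1.45.

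Of the 15 members under the floor, 14 had reads in both libraries. Their ratio was above 1 for 12 of them, 11 after TMM scaling, and their median log2 ratio was 0.76. Low genes leaned the same way across the table: among the 4576 genes under the floor with reads in both libraries, 70.3% had a ratio above 1 and the median log2 ratio was 0.22. A ratio of at least 2 was found for 6 of the 14 members and for 12.3% of these genes. Only for *gh61*-*10* and *cdh*-*2* did the counting interval lie wholly beyond 2-fold, and for 3 of the 14 it included 1. No member under the floor had a ratio of 0.5 or less, against 2.91% of all low genes.

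Summed over all 38 genes, the RPKM was 12982 in the WT against 12210 in the mutant, a ratio of 0.941. With TMM scaling the ratio was 0.848. Without *cbh*-*1* and *gh6*-*2*, left out after seeing the data, it was 0.893, or 0.805 with TMM scaling. The members took 2.13% of all assigned reads in the WT (exact interval 2.12 to 2.13) and 2.00% in Δ*gul*-*1* (1.99 to 2.01). The total thus differed less than its make-up, by an amount that depended on the scaling. Endoglucanase transcripts were 1.07 times as abundant as those of family 61 in the WT but 0.305 times in the mutant, and 0.194 and 0.0649 times with NCU07898 moved from the first class to the second.

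**Figure D4:**
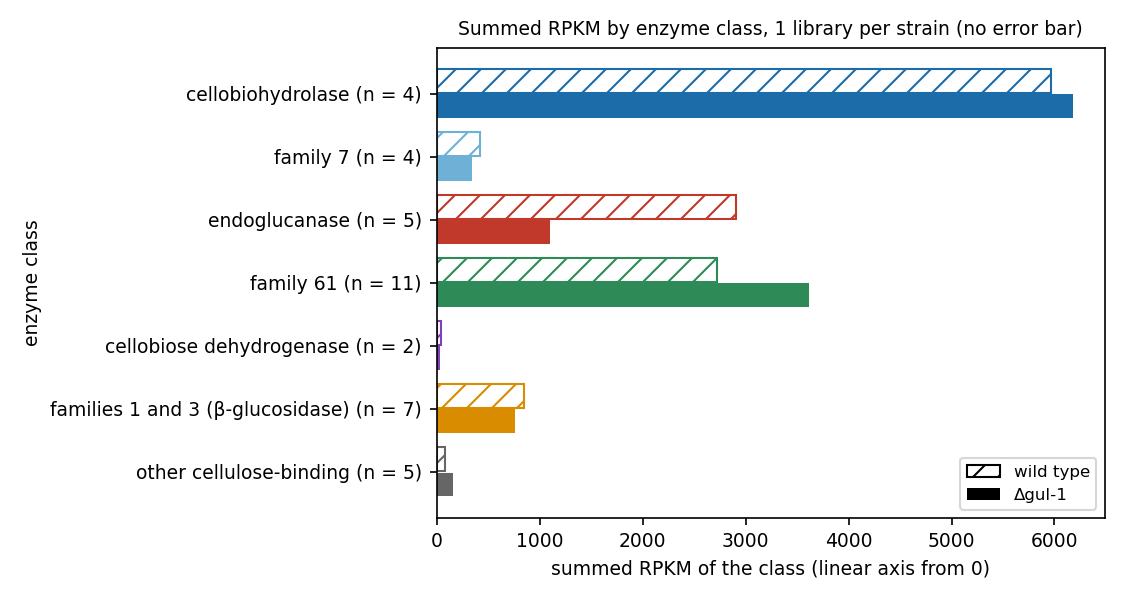
Summed RPKM of each enzyme class in the WT (hatched bars) and in Δ*gul*-*1* (filled bars), on a linear axis from 0, with the number of genes of the class. There is 1 library per strain and no error bar. The endoglucanase sum goes from 2904 to 1105 RPKM, the family 61 sum from 2719 to 3620 RPKM, and the cellobiohydrolase sum from 5962 to 6179 RPKM.

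The order of the members by RPKM was similar at the top. Of the 10 most abundant members in the WT, 9 were also among the 10 most abundant in Δ*gul*-*1*. In the WT the order ran *gh6*-*2*, *cbh*-*1*, NCU07898, *gh61*-*4*, with no overlap of counting intervals between neighbours, and then *gh1*-*1* and NCU05404, whose intervals overlapped. In Δ*gul*-*1* the level of *gh61*-*4* reached that of *cbh*-*1*, with overlapping intervals, and NCU07898 came after them. Below these *gh6*-*3*, *gh1*-*1* and *gh61*-*3* stood together at 513.8, 500.6 and 491.8 RPKM, with overlapping intervals between neighbours.

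The other genes of cellulose use were looked at as a list of 5 regulators, 2 cellodextrin transporters and a cellobionate phosphorylase. All 8 passed the floor, none was 2-fold higher or lower, and all 8 had a ratio above 1 on the deposited RPKM, 6 after TMM scaling. Over all genes past the floor, 93.5% were within 2-fold and 63.9% had a ratio above 1, or 44.0% after TMM scaling. *clr*-*2* (NCU08042), a transcription factor gene needed for cellulase induction, had the largest ratio, with 16.8 RPKM in the WT against 30.3 in the mutant (1.81, interval 1.68 to 1.94). *clr*-*1* (NCU07705) had 75.7 and 97.0 RPKM, the xylan regulator gene *xlr*-*1* (NCU06971) 96.2 and 134.4 RPKM, and the catabolite repressor gene *cre*-*1* (NCU08807) 184.4 and 232.5 RPKM. *vib*-*1* (NCU03725), a regulator gene also needed for growth on cellulose, had 77.5 and 79.7 RPKM, a ratio of 1.03 that TMM scaling turned to 0.928.

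The cellodextrin transporter genes were among the abundant transcripts of both libraries. *cdt*-*2* (NCU08114) had 2710 RPKM in the WT against 3261 in the mutant, and *cdt*-*1* (NCU00801) had 734 and 781 RPKM, a ratio of 1.06 that TMM scaling turned to 0.959. *ndvB* (NCU09425), annotated as an NdvB protein and known in *N. crassa* as the cellobionate phosphorylase that splits the product of cellobiose oxidation inside the cell, had 233 and 324 RPKM (1.39).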

How the data were processed

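RNA of WT and Δ*gul*-*1* mycelia was sequenced, with 1 library per strain. The authors mapped the reads to transcripts of genome version 12 with TopHat 2.0.8b and counted those that mapped uniquely to 1 gene with HTSeq 0.5.4p2, so the deposited read counts leave out reads shared by near-identical genes. The sources used here do not say whether strand was used in counting. The deposited RPKM values are the authors' own and equalled reads per exon length and column total, with a largest gap of 1.8e-12. The authors' NOISeq probability was not used, and 0 sample columns were left unmapped.

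Ratios used no pseudocount. Intervals are exact conditional binomial intervals (Clopper and Pearson), computed with SciPy 1.17.1 in Python 3.11.15. Without replicates, neither edgeR's quasi-likelihood test nor DESeq2 could be run. R 4.3.3 with edgeR 4.0.16 gave the TMM factors. Other scalings, floors, folds, a pseudocount and regroupings of genes were tried. The code was tested on simulated data. Symbols and NC12 positions are RefSeq's, and 30 members have a symbol there. Exon lengths are multiples of 3 for 44.3% of all genes, so they are not only coding lengths. The cellobionate transporter planned for the pathway list is not named in that reference and was left out, and sequence features were not analysed here. Every member above 20 RPKM in a library was named, and a member under it where its whole interval lay beyond 2-fold or to account for its class. The members, classes and lists were chosen with earlier results of these data known.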

Additional observations from a re-analysis of the deposited data

How the results depend on the processing

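With 1 library per strain, every value here is a comparison of 2 libraries. No paired analysis was possible because each strain had 1 sample and the labels carry no replicate numbers. The 3 higher and 3 lower members stood past 2-fold under TMM, median-of-ratios and top-50 scaling, and their counting intervals lay wholly beyond 2-fold. TMM and median-of-ratios scaling added *gh45*-*1* to the lower genes (log2 ratio -1.06), and turned the log2 ratios of *gh61*-*1* to -0.05 and of *gh6*-*2* to -0.13. Scaling to the library without its 50 most abundant genes turned *gh6*-*2* to -0.03, and the pseudocount of 1 RPKM changed no call. At 1.5-fold there were 8 higher and 5 lower members, with no floor 9 higher, above 50 RPKM 2 lower, and at 3-fold 2 higher and 2 lower. The ratio of the summed RPKM of all members moved from 0.941 to 0.848 with TMM or median-of-ratios scaling, to 0.903 without the 50 most abundant genes, and, chosen after seeing the data, to 0.893 without *cbh*-*1* and *gh6*-*2*. The median log2 ratio moved to -0.18 with TMM or median-of-ratios scaling, to -0.091 without the 50 most abundant genes, and to 0.42 over all members with reads in both libraries. The cellobiohydrolase sum turned to 0.934 under TMM or median-of-ratios scaling and to 0.995 without the 50 most abundant genes. Counting NCU07898 with family 61, also chosen after seeing the data, gave that family a ratio of 0.942 and left the endoglucanases at 0.316. The endoglucanase ratio of 0.381 was 0.452 without NCU05404 and 0.759 without NCU05404 and NCU07898, added in the same way. Depth limits the rare members: at 25 and 90 reads the interval of *gh61*-*10* ran from 2.30 to 5.89.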

Other observations

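The genes that lie beside the members in NC12 were read as well, after the members' values had been seen. No member lay beside another. Of the 76 neighbours in the table, 30 passed 20 RPKM in a library, with 5 past 2-fold in the higher and 2 in the lower direction, 23.3% against 6.51% of all genes past the floor. This was not tested.

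Beside *gh3*-*4*, the hypothetical protein gene NCU04951, 1130 bases away, had 4165 WT reads against 33293 mutant reads, or 215.4 against 1732 RPKM, 8.04-fold higher (7.79 to 8.31) where *gh3*-*4* was 8.83-fold higher. The gene on the other side of *gh3*-*4*, NCU04953, annotated as a penicillopepsin, had only 86 and 149 reads. Beside *cdh*-*2*, the xylanase family gene *gh10*-*1* (NCU05924), 3862 bases away, was 3.54-fold higher, where *cdh*-*2* had a ratio of 3.38. Beside *gh61*-*4*, whose own ratio was 1.19, NCU01051 lay 228 bases away and had 102.9 and 339.0 RPKM, 3.30-fold higher. Beside *gh61*-*10*, the maltose permease gene NCU01868 had 12.1 and 30.8 RPKM, 2.54-fold higher.

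NCU07899, a CAIB/BAIF family gene 167 bases from NCU07898, had 82.5 RPKM in the WT against 38.3 in the mutant, 2.15-fold lower where NCU07898 was 2.44-fold lower. The neighbours of NCU09416 did not share its direction. NCU09415, 320 bases away, had 8.29 and 31.8 RPKM, 3.83-fold higher, while NCU09416 was 7.91-fold lower. The remaining lower neighbour, NCU16528, lay 59401 bases from *gh61*-*6* and had 906 WT reads against 2 mutant reads. Around NCU05404, the gene NCU05401 had 99 and 125 reads and NCU11108 had none in either library.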
